A study of Saccharomyces cerevisiae with 16 samples.

Results

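The proteasome genes of budding yeast described here were 34 open reading frames of the 7126 features counted in the RNA libraries (6696 in the footprint libraries of 1 h and 5647 in those of 8 h). They were chosen by name, as the 14 genes of the core particle (the alpha-ring genes SCL1, PRE8, PRE9, PRE6, PUP2, PRE5 and PRE10 and the beta-ring genes PRE3, PUP1, PUP3, PRE1, PRE2, PRE7 and PRE4), the 10 genes of the base (the ATPases RPT1, RPT2, RPT3, RPT4, RPT5 and RPT6, with RPN1, RPN2, RPN10 and RPN13), the 9 genes of the lid (RPN3, RPN5, RPN6, RPN7, RPN8, RPN9, RPN11, RPN12 and SEM1) and RPN4, which encodes their transcription activator. All 34 were counted in all 16 libraries and passed the filter on low counts in every comparison.

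The libraries came from haploid BY4742 cells in which CDC33, the gene of the cap-binding translation factor eIF4E, carried an auxin-inducible degron tag. Cells were treated with 500 µM of the auxin indole-3-acetic acid (IAA), which triggers degradation of the tagged protein, or with the solvent DMSO, for 1 h or 8 h in rich medium at log phase. The 8 groups were IAA and DMSO at 1 h in RNA-seq, the same treatments in ribosome profiling, and the same 4 groups at 8 h, with 2 libraries each. Ribosome profiling sequences the mRNA fragments that ribosomes protect, called footprints. The replicates were labelled as biological, but whether they were separate cultures is not given, so the p-values measure the spread between these libraries. The IAA and DMSO cells shared the strain and the tag, and no untagged strain with IAA was among these samples, so effects of IAA itself and of eIF4E loss cannot be told apart. The degron also works through ubiquitin and the proteasome, whose genes are the subject here.

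The proteasome degrades proteins marked with ubiquitin. Its core particle is a barrel of stacked rings whose beta subunits hold the proteolytic sites, and its regulatory particle, built of a base and a lid, recognises, unfolds and feeds in the substrates. Subunits are made in fixed proportions, and in yeast their genes are switched on together by Rpn4, an activator that the proteasome itself destroys.

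Most of these genes share a sequence before their start codon. The sequence GGTGGCAAA, known as the proteasome-associated control element that Rpn4 binds, was searched for on both strands from 250 bases before to 50 bases after each start codon. It lay before 27 of the 33 subunit genes (81.8%), in 12 of 14 core genes, 8 of 10 base genes and 7 of 9 lid genes, against 72 of all 6001 protein-coding genes (1.2%). Each of the 27 held 1 match, and the shortened GGTGGC was held by 30 subunit genes (90.9%) and by 416 of all genes (6.93%). The full sequence was not in the windows of PRE5, PUP1, RPN10, RPN13, RPN8 and SEM1, nor in that of RPN4 itself. Matches of the genes on which the results below turn are printed here with 10 flanking bases on each side, 5′ to 3′ on the strand that reads GGTGGCAAA, which is in capitals, from the RefSeq genome of build R64.
PRE7 (YBL041W), chrII:141150-141178, plus strand, 79 bases before the start codon: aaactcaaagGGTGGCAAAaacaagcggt
PRE1 (YER012W), chrV:177683-177711, plus strand, 134 bases before the start codon: aaatctttacGGTGGCAAAaaataaagaa
PRE2 (YPR103W), chrXVI:732184-732212, plus strand, 147 bases before the start codon: acagcaaaagGGTGGCAAAacgaagaata
PRE3 (YJL001W), chrX:435035-435063, plus strand, 110 bases before the start codon: aacggaatccGGTGGCAAAaaagggaaaa
PRE6 (YOL038W), chrXV:255218-255246, minus strand, 101 bases before the start codon: tttcccttccGGTGGCAAAagaatcttcg
RPT2 (YDL007W), chrIV:437906-437934, plus strand, 123 bases before the start codon: gtttttctccGGTGGCAAAtgtctctttt
RPT4 (YOR259C), chrXV:813802-813830, plus strand, 104 bases before the start codon: ctttcccttcGGTGGCAAAttccactatt
RPN1 (YHR027C), chrVIII:164838-164866, minus strand, 137 bases before the start codon: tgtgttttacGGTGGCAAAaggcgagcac
RPN2 (YIL075C), chrIX:220801-220829, minus strand, 111 bases before the start codon: atttattttcGGTGGCAAAactggataca
RPN11 (YFR004W), chrVI:153259-153287, plus strand, 116 bases before the start codon: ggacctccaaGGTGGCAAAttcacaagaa
The 9 bases were the same in each by the search, whereas the flanks differed, and in PRE6 and RPT4 the element read on the strand opposite to the gene. A match is a description of the sequence and not a measured binding site.

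Counts per library ranged from 32096327 to 50294053 for RNA at 1 h, 10182227 to 15072930 for RNA at 8 h, 2849721 to 8010138 for footprints at 1 h and 1766499 to 9985060 for footprints at 8 h, where DMSO replicate 1 was the shallowest. RNA was selected by poly(A) at 1 h but depleted of rRNA at 8 h, and footprint libraries also differed between the times, so time and library preparation cannot be told apart. CDC33 RNA had 584 and 496 CPM with IAA, against 744 and 670.1 CPM with DMSO at 1 h (log2 fold change -0.39 ± 0.11, adjusted p = 0.0349) and 579 and 507 CPM with IAA, against 761 and 829.8 CPM with DMSO at 8 h (log2 fold change -0.55 ± 0.14, adjusted p = 0.0391), and was lower at both times. Its footprints had 509 and 462 CPM with IAA, against 487 and 488 CPM with DMSO at 1 h (-0.008 on the log2 scale) and 544 and 528 CPM with IAA, against 569.7 and 550.3 CPM with DMSO at 8 h (-0.062). The degron acts on the protein, so neither value tests the depletion. Genes deleted in BY4742 (HIS3, LEU2, LYS2, URA3) reached at most 37 counts, and the summed RNA of 6 a-cell markers at 1 h, which an alpha strain should lack, was 39.4 to 46.9 CPM with IAA against 21.8 to 23.8 CPM with DMSO, beside 3744 to 4155 CPM and 3388 to 3633 CPM of 4 alpha-cell markers. At 8 h the a-cell sum was 31.0 to 37.7 CPM with IAA against 16.1 to 20.3 CPM with DMSO. The RNA of 4 meiotic genes summed to 48.1 to 51.4 CPM with IAA against 28.2 to 29.8 CPM with DMSO at 1 h, and to 35.3 to 44.2 CPM with IAA against 24.9 to 26.2 CPM with DMSO at 8 h. At 1 h IME2 held most of the meiotic difference (26.6 and 28.1 CPM with IAA, against 9.09 and 8.03 CPM with DMSO), and the groups of IME1 overlapped. STE2 and STE6 held most of the a-cell difference, and the groups of MFA2 and BAR1 overlapped. Summed a-cell footprints were 1.98 to 2.31 CPM with IAA against 2.62 to 2.69 CPM with DMSO at 1 h. At 8 h they were 7.18 to 10.1 CPM with IAA against 2.52 to 3.04 CPM with DMSO. The part of these differences in the results was not tested. Values below are counts per 1000000 counts of a library (CPM), with library sizes scaled by the trimmed mean of M values (TMM), log2 fold changes are IAA over DMSO with their standard error, and a gene was called where the adjusted p of edgeR's quasi-likelihood test, corrected over all features by Benjamini and Hochberg, was under 0.05.

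The first question was whether 1 h of eIF4E depletion changed the RNA of the proteasome. It fell across the whole complex. The 33 subunit genes together held 6291 and 5898 CPM with IAA, against 9162 and 8593 CPM with DMSO, so that the IAA libraries had 0.686 of the DMSO level, and the groups did not overlap. Groups of 2 libraries can be apart without any change, and the share of all features with groups apart was not computed, so overlap is a description here and below. CPM are relative, so less of this RNA per cell and fewer cells that hold it cannot be told apart. Of the 33 genes, 31 were called lower and all 33 lay below 0, with a median log2 fold change of -0.57 against 0.0063 for all 6247 features tested, of which 20.9% were called lower and 21.9% higher. All 14 core genes fell (median -0.62), as did all 10 base genes (median -0.52) and 7 of 9 lid genes (median -0.39). The study also asked for a log2 change past 0.58 in either direction, which left 14 subunits lower, against 6.85% of all features.

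**Figure D1:**
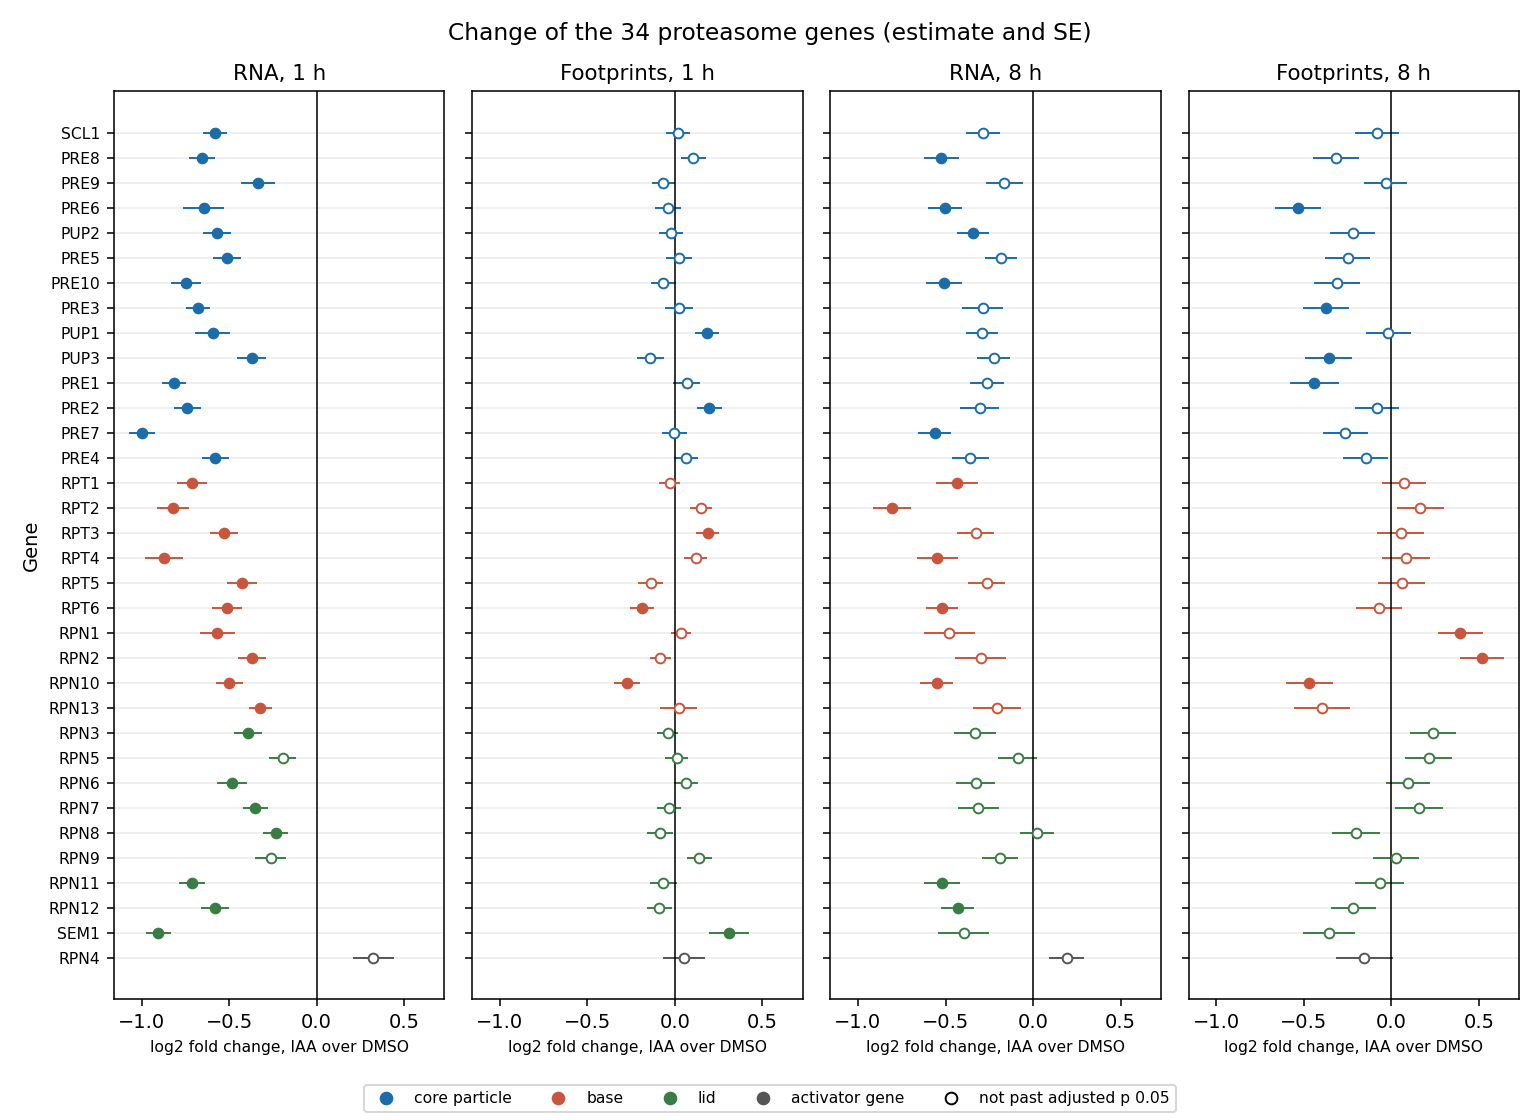
Log2 fold change, IAA over DMSO, of the 34 proteasome genes (rows) in RNA and footprints at 1 h and 8 h (panels), with the standard error as bars and filled points for genes past an adjusted p of 0.05. RNA at 1 h lies left of 0 for all 33 subunits, footprints at 1 h scatter between -0.27 and 0.31, and at 8 h footprints of core genes lie below 0 while RPN1 and RPN2 lie above it; with total-count scaling PUP1 and PRE2 of the core lay above 0 at 8 h, at 0.25 and 0.19.

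Within the core particle, the 3 genes of the proteolytic subunits moved alike. PRE2 (YPR103W), the beta5 subunit with chymotrypsin-like activity, had 210.3 and 199 CPM with IAA, against 348 and 334 CPM with DMSO (log2 fold change -0.74 ± 0.077, adjusted p = 0.00148). PRE3 (YJL001W), the beta1 subunit with caspase-like activity, had 122 and 117 CPM with IAA, against 190.0 and 193 CPM with DMSO (log2 fold change -0.68 ± 0.069, adjusted p = 0.00139), and PUP1 (YOR157C), the trypsin-like beta2 subunit, had 146 and 131 CPM with IAA, against 224 and 194 CPM with DMSO (log2 fold change -0.59 ± 0.10, adjusted p = 0.00579). For each of these genes both IAA libraries were below both DMSO libraries. The largest fall of the core was in PRE7 (YBL041W), the beta6 subunit, with 123 and 115 CPM with IAA, against 235 and 240.4 CPM with DMSO (log2 fold change -1.0 ± 0.073, adjusted p = 0.000911). The smallest was in PRE9 (YGR135W), the alpha3 subunit, with 266 and 242 CPM with IAA, against 339.8 and 301 CPM with DMSO (log2 fold change -0.34 ± 0.095, adjusted p = 0.0314). The groups of PRE9 did not overlap either, but its call was lost when DMSO replicate 1 (-0.25) or IAA replicate 2 (-0.27) was left out. The 7 beta-ring genes had a median of -0.68 and the 7 alpha-ring genes one of -0.58.

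In the regulatory particle the spread was wider. RPT4 (YOR259C), an ATPase of the base, had 189 and 159.8 CPM with IAA, against 339 and 299 CPM with DMSO (log2 fold change -0.87 ± 0.11, adjusted p = 0.00238), and RPN13 (YLR421C), a ubiquitin receptor, had 94.7 and 91.6 CPM with IAA, against 118 and 115 CPM with DMSO (log2 fold change -0.32 ± 0.066, adjusted p = 0.0109). Both fell, at the far ends of the base, and the 6 ATPase genes had a median of -0.62. In the lid SEM1 (YDR363W-A), the smallest subunit, had 66.6 and 68.5 CPM with IAA, against 121 and 132 CPM with DMSO (log2 fold change -0.90 ± 0.073, adjusted p = 0.000976). RPN11 (YFR004W), the deubiquitinase that cuts ubiquitin off the substrate, had 112 and 104 CPM with IAA, against 180.0 and 174 CPM with DMSO (log2 fold change -0.71 ± 0.074, adjusted p = 0.00149). RPN5 (YDL147W), another lid subunit, had 278 and 264 CPM with IAA, against 316 and 305 CPM with DMSO (log2 fold change -0.20 ± 0.076, adjusted p = 0.0814). RPN5 and RPN9 (log2 fold change -0.26 ± 0.09, adjusted p = 0.0560) were the subunits not called.

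Genes on which the later comparisons turn were lower too. PUP3, the beta3 subunit, had 184 and 183 CPM with IAA, against 250.4 and 225 CPM with DMSO, PRE1 (YER012W), the beta4 subunit, had 123 and 118 CPM with IAA, against 214 and 209 CPM with DMSO, and PRE8 (YML092C), the alpha2 subunit, had 129.5 and 127 CPM with IAA, against 209 and 195 CPM with DMSO. In each of them the IAA libraries were the lower ones. The ubiquitin receptor gene RPN10 had 153 and 149 CPM with IAA, against 223 and 204 CPM with DMSO, and the lid gene RPN7 (YPR108W) had 184 and 192 CPM with IAA, against 245 and 235 CPM with DMSO. RPN8, also of the lid, had 236 and 232 CPM with IAA, against 281 and 270.1 CPM with DMSO. The groups of these 3 genes were apart as well.

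RPN4 (YDL020C, chrIV:415113-416708, minus strand of build R64) was not called, and its estimate had the opposite sign to those of the subunits. Its RNA at 1 h was 105 and 108 CPM with IAA, against 95.3 and 75.1 CPM with DMSO, with the IAA libraries above the DMSO libraries and the DMSO libraries apart from each other (log2 fold change 0.32 ± 0.12, adjusted p = 0.0631). RPN4 was called higher without DMSO replicate 1 (0.50), with total counts (0.54) and with the features shared by all tables (0.34), so whether it passed depended on the setting, while the sign was positive in each of these.

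Leaving out each library in turn gave 27 to 31 lower subunits, and 27 of the 31 genes kept their call each time. Those that lost it were PRE9 (-0.25), PUP3 (-0.30) and RPN2 (-0.39) without DMSO replicate 1, PRE9 also without IAA replicate 2 (-0.27), RPN2 also without DMSO replicate 2 (-0.36), and RPN8 in each of the 4 cases (-0.27 to -0.21). With total counts in place of TMM, which raised the median of all features by 0.22 and the share of higher genes among all calls to 81.8%, from 51.1%, 23 subunits were lower.

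Footprints at 1 h did not follow the RNA. The 33 genes together held 5257 and 5149 CPM with IAA, against 5161 and 5187 CPM with DMSO, and the libraries overlapped. Only 4 genes were called higher and 2 lower, while 11.1% of all 5169 features were called higher and 14.9% lower, and the median log2 fold change of the 33 genes was 0.010 against 0.0092 for all features. The estimates ran from -0.27 to 0.31, with standard errors of 0.057 to 0.11 for the 33 genes.

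Of the catalytic genes, PRE2 had 178 and 149.7 CPM with IAA, against 142 and 141 CPM with DMSO (log2 fold change 0.20 ± 0.072, adjusted p = 0.0366), PUP1 had 149 and 160.2 CPM with IAA, against 142 and 130.0 CPM with DMSO (log2 fold change 0.18 ± 0.07, adjusted p = 0.0475), and both were called higher without overlap of the groups. PRE3 had 119.6 and 106 CPM with IAA, against 118 and 102 CPM with DMSO (log2 fold change 0.026 ± 0.08, adjusted p = 0.860), with overlapping groups. PUP3 (YER094C), the beta3 subunit and the lowest of the core, had 106 and 96.4 CPM with IAA, against 113 and 109 CPM with DMSO (log2 fold change -0.14 ± 0.077, adjusted p = 0.176), and PRE7, whose RNA had fallen most, had 146 and 137 CPM with IAA, against 139 and 145 CPM with DMSO (log2 fold change -0.0031 ± 0.07, adjusted p = 0.981).

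In the base RPN10 (YHR200W), a ubiquitin receptor, had 105 and 98.5 CPM with IAA, against 122 and 123 CPM with DMSO (log2 fold change -0.27 ± 0.075, adjusted p = 0.00537) and fell, as did the ATPase gene RPT6 (log2 fold change -0.19 ± 0.069, adjusted p = 0.0365). RPT3 (YDR394W), another ATPase gene, had 176 and 178 CPM with IAA, against 162 and 148 CPM with DMSO (log2 fold change 0.19 ± 0.067, adjusted p = 0.0341) and rose. In the lid SEM1 footprints were higher, the reverse of its RNA, with 45.8 and 44 CPM with IAA, against 37.6 and 34.4 CPM with DMSO (log2 fold change 0.31 ± 0.11, adjusted p = 0.0404). RPN12 (YFR052W) had 121 and 142 CPM with IAA, against 141 and 141 CPM with DMSO (log2 fold change -0.089 ± 0.073, adjusted p = 0.399), with IAA replicate 2 level with the DMSO libraries, and RPN11 had 106 and 107 CPM with IAA, against 114 and 108 CPM with DMSO (log2 fold change -0.066 ± 0.075, adjusted p = 0.570). For RPN4 the values were 37.2 and 43.2 CPM with IAA, against 37.3 and 41.2 CPM with DMSO (log2 fold change 0.052 ± 0.12, adjusted p = 0.805), and the groups overlapped.

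Most other footprint values differed little. PRE1 had 122 and 111 CPM with IAA, against 109 and 113 CPM with DMSO, RPN13 had 50.1 and 51.7 CPM with IAA, against 52.1 and 48.0 CPM with DMSO, and RPN8 had 107 and 124 CPM with IAA, against 125 and 122 CPM with DMSO. Groups overlapped in all of these, and likewise in RPN3, a lid subunit, with 201 and 203 CPM with IAA, against 203 and 214 CPM with DMSO. PRE9 had 155 and 153 CPM with IAA, against 164 and 157 CPM with DMSO, RPN2 had 331 and 339 CPM with IAA, against 348 and 362 CPM with DMSO and RPT4 had 176 and 167 CPM with IAA, against 157 and 158 CPM with DMSO. In these the groups did not overlap, yet none passed the test.

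These calls at 1 h were not firm. DESeq2 called none of the 33 genes in either direction, none of the 6 calls held with every library left out (0 to 3 higher and 0 to 2 lower), and total-count scaling gave 16 higher and none lower, and raised the median of all features by 0.18 and the share of higher genes among all calls to 84.6%, from 42.8%. Without IAA replicate 1, SEM1 (0.28), PRE2 (0.076), RPT3 (0.20) and PUP1 (0.23) were not called, nor was RPT6 (-0.22). Without IAA replicate 2 RPN10 (-0.23), SEM1 (0.34), RPT3 (0.18), PUP1 (0.13) and RPT6 (-0.15) were not called, and without either DMSO replicate neither PRE2 (0.20 and 0.19) nor RPT6 (-0.22 and -0.16) was. Without DMSO replicate 2, PUP1 (0.12), RPT3 (0.13) and SEM1 (0.25) were not called.

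**Figure D2:**
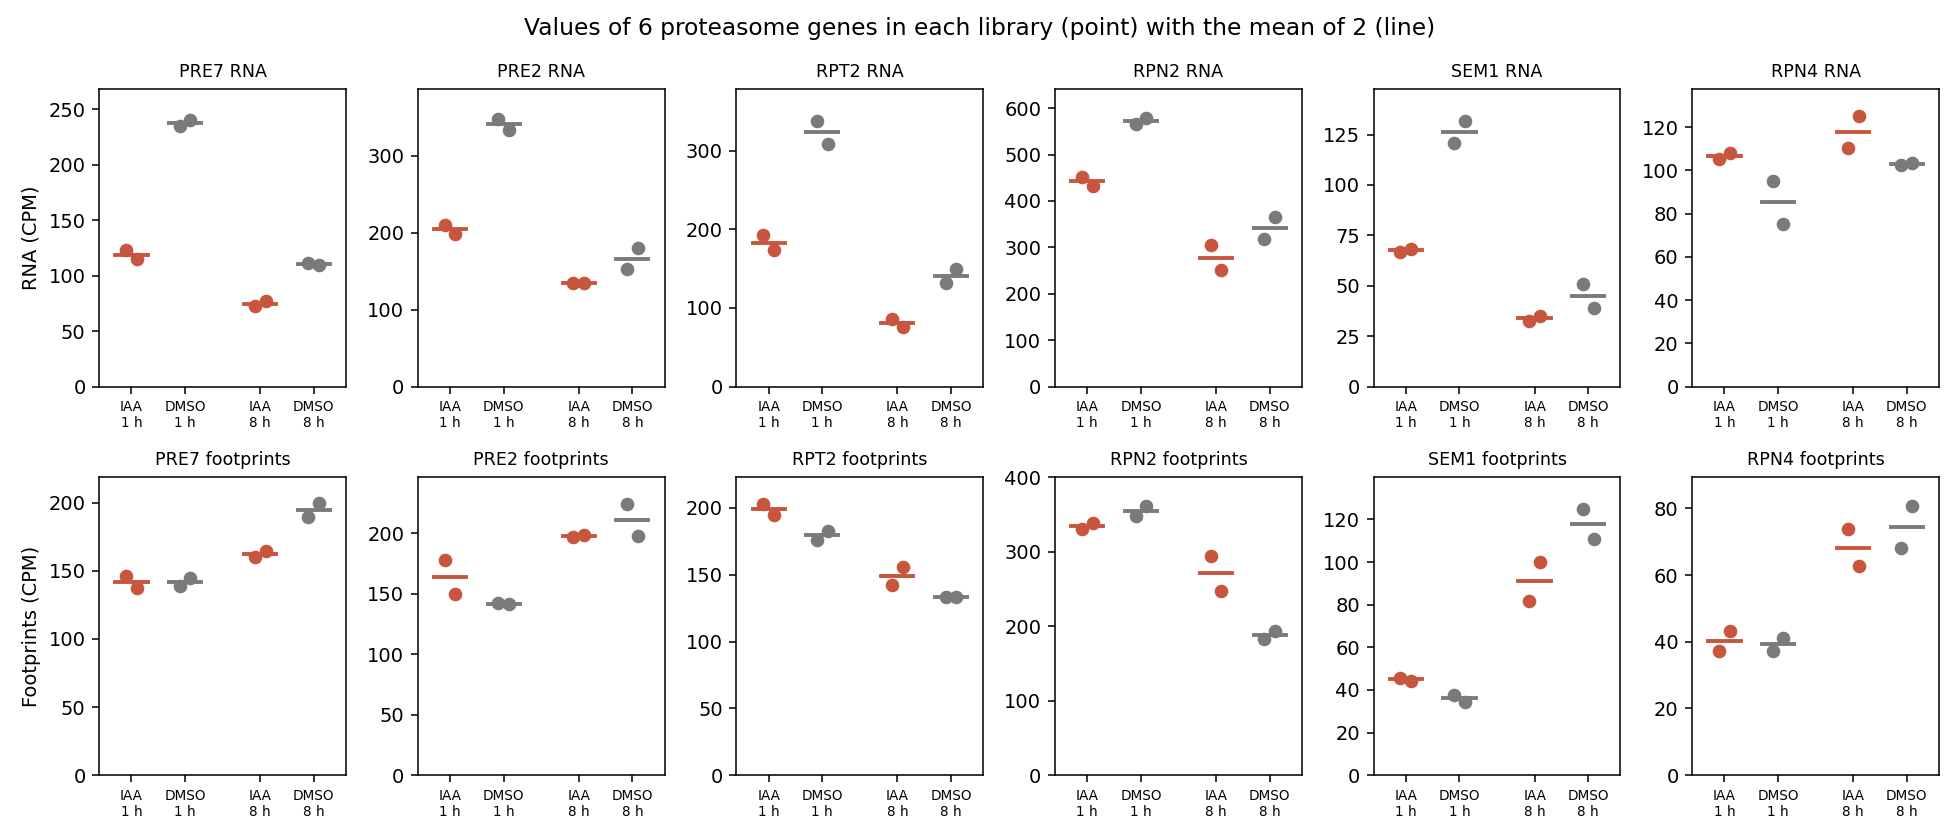
CPM of RNA (upper row) and footprints (lower row) of 6 proteasome genes in each library (points) with the mean of 2 (lines), for IAA and DMSO at 1 h and 8 h; each axis starts at 0. PRE7 RNA at 1 h lies at 123 and 115 CPM with IAA and at 235 and 240.4 CPM with DMSO, while its footprints lie at 146 and 137 CPM with IAA and at 139 and 145 CPM with DMSO.

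The difference between both responses was tested directly, as the interaction of treatment and assay in the 8 libraries of a time, which gives the change of the footprint-to-RNA ratio, or translation efficiency. At 1 h the ratio was called higher for 21 of the 33 genes (9.88% of all 6055 features), and all 33 estimates were above 0, with a median of 0.53 against -0.0082 for all features (10.4% of which were called lower). The called genes were 12 of 14 core genes, 5 of 10 base genes and 4 of 9 lid genes. With a log2 change of at least 0.58, 12 subunits were higher, against 6.37% of all features. Footprint CPM are relative too, so a fall of footprints shared by all genes would not be seen in them. The paper reports reduced bulk protein synthesis and fewer polysomes early in the depletion. A higher ratio here and below is thus relative to the other genes. Whether these mRNAs were translated more per molecule was not tested.

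SEM1 had the largest rise of the ratio (log2 change 1.15 ± 0.13, adjusted p = 0.000474), with RNA that fell and footprints that rose. PRE7 (log2 change 0.93 ± 0.11, adjusted p = 0.000618) and RPT4 (log2 change 0.93 ± 0.14, adjusted p = 0.00163) led the core and the base. At the low ends stood PUP3 (0.17 ± 0.12, adjusted p = 0.358), RPN10 (0.16 ± 0.11, adjusted p = 0.344) and RPN8 (0.079 ± 0.12, adjusted p = 0.712), none of which passed the test. The ratio also rose for PRE2 (0.88), PUP1 (0.71), PRE3 (0.65) and RPN11 (0.58), whereas RPN4 had a log2 change of -0.34 ± 0.18 (adjusted p = 0.207). That of RPN4 passed without DMSO RNA replicate 1 (-0.50).

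All 21 calls of the ratio were kept under the 8 other settings tried, total-count scaling and DESeq2 included, the fold threshold aside. Leaving out 1 of the 8 libraries at a time gave 16 to 23 higher genes, and 15 of the 21 kept their call each time, the others being PRE6, PUP2, PRE5, RPN1, RPN6 and RPN12. Across the 33 genes the RNA and footprint changes at 1 h were related with Pearson r = -0.38 and Spearman rho = -0.40, and across the 5090 features tested in both with r = 0.24 and rho = 0.18; the points of a panel share their libraries.

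**Figure D3:**
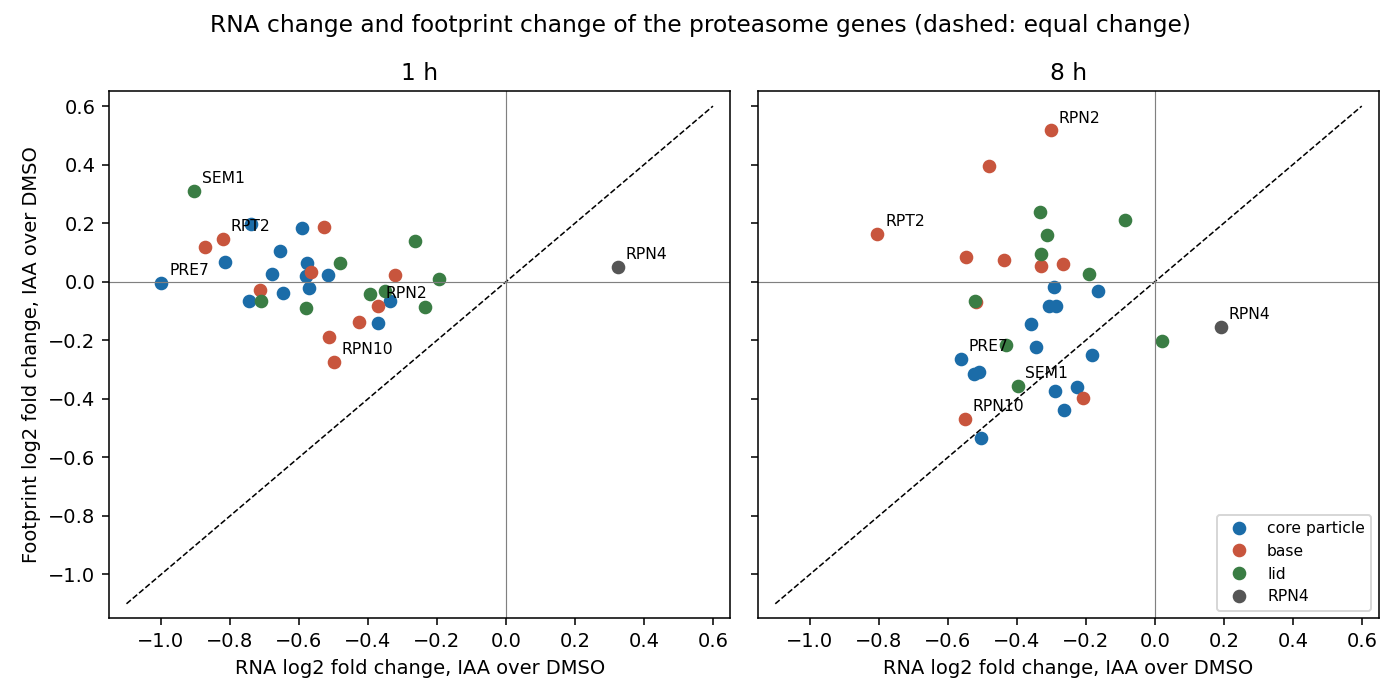
Footprint log2 fold change against RNA log2 fold change, IAA over DMSO, of the 34 genes at 1 h (left) and 8 h (right), coloured by subcomplex, with a dashed line where both are equal. At 1 h all 33 subunits lie above the line and RPN4 below it; at 8 h RPT2 (RNA -0.80, footprints 0.16) and RPN1 (RNA -0.48, footprints 0.39) are farthest above it.

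After 8 h of treatment the RNA was still lower, but less of it passed the test. The 33 genes held 4445 and 4299.6 CPM with IAA, against 5446 and 5692 CPM with DMSO, or 0.785 of the DMSO level. They fell in 12 cases, 5 in the core, 5 in the base and 2 in the lid (8.61% of all 6100 features lower, 9.03% higher). Their median was -0.33 against 0.0080 for all features, and 32 of 33 lay below 0. With the threshold of 0.58, RPT2 alone was left, against 4.05% of all features.

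RPT2 (YDL007W), whose ATPase tail helps to open the core particle, had 85.7 and 75.8 CPM with IAA, against 132 and 149 CPM with DMSO (log2 fold change -0.80 ± 0.11, adjusted p = 0.00531), close to its 1 h change of -0.82. PRE7 was again the lowest of the core, with 72.6 and 77.0 CPM with IAA, against 112 and 109 CPM with DMSO (log2 fold change -0.56 ± 0.095, adjusted p = 0.0105), and RPN11 the lowest of the lid, with 97.4 and 93.3 CPM with IAA, against 127 and 146 CPM with DMSO (log2 fold change -0.52 ± 0.10, adjusted p = 0.0175). In all these genes the groups were apart. The other genes called lower were PRE8, PRE6, PUP2 and PRE10 of the alpha ring, RPT1, RPT4, RPT6 and RPN10 of the base, and RPN12 of the lid, with log2 fold changes from -0.55 in RPN10 to -0.34 in PUP2.

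None of the 3 catalytic genes passed at 8 h. PRE3 had 147 and 172 CPM with IAA, against 188 and 202 CPM with DMSO (log2 fold change -0.29 ± 0.12, adjusted p = 0.127), PUP1 had 109 and 109.7 CPM with IAA, against 134 and 133 CPM with DMSO (log2 fold change -0.29 ± 0.089, adjusted p = 0.0596) and PRE2 had 135 and 134 CPM with IAA, against 153 and 180.1 CPM with DMSO (log2 fold change -0.31 ± 0.11, adjusted p = 0.0983). Their IAA libraries were each below their DMSO libraries, which is no test, and PRE2 had -0.41 without DMSO replicate 1. The highest of each subcomplex were PRE9, with 184 and 189.9 CPM with IAA, against 218 and 201 CPM with DMSO (log2 fold change -0.16 ± 0.11, adjusted p = 0.314), RPN13, with 26.5 and 30.3 CPM with IAA, against 35.4 and 30.2 CPM with DMSO (log2 fold change -0.21 ± 0.14, adjusted p = 0.329), and RPN8 (YOR261C), with 102 and 108 CPM with IAA, against 107 and 100.082 CPM with DMSO (log2 fold change 0.022 ± 0.094, adjusted p = 0.893), of which RPN13 and RPN8 had overlapping groups. RPN4 had 110.2 and 125 CPM with IAA, against 103 and 103 CPM with DMSO (log2 fold change 0.19 ± 0.099, adjusted p = 0.213), above DMSO in both IAA libraries, as at 1 h.

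RNA of PRE1 had 122 and 115 CPM with IAA, against 147 and 139 CPM with DMSO, PRE8 had 114 and 122 CPM with IAA, against 165 and 175 CPM with DMSO, and RPT4 had 78.0 and 66.6 CPM with IAA, against 100.170 and 111 CPM with DMSO. For RPN10 the values were 102 and 108 CPM with IAA, against 157 and 151 CPM with DMSO. No groups overlapped in these genes of the core and base. In the lid RPN3 had 237 and 236 CPM with IAA, against 278 and 317 CPM with DMSO, RPN7 had 116 and 98.2 CPM with IAA, against 127 and 139.7 CPM with DMSO and SEM1 had 32.8 and 35.1 CPM with IAA, against 50.7 and 39.0 CPM with DMSO. Their groups were apart too, and none of these 3 lid genes passed.

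The count at 8 h changed most when an IAA library was left out: without IAA replicate 1 or without IAA replicate 2 only RPT2 was called, whereas without either DMSO replicate 11 genes were. Without DMSO replicate 1 those lost were PUP2 (-0.32), RPT1 (-0.46) and RPN12 (-0.36), and without DMSO replicate 2 PUP2 (-0.36) and RPT1 (-0.41). With the dispersion estimated from all 8 RNA libraries 20 genes were lower. Total-count scaling gave 10 lower genes, with 64.3% of all calls higher in place of 51.2%. Across the 33 genes the RNA changes at 1 h and 8 h had Pearson r = 0.69 and Spearman rho = 0.65, against 0.58 and 0.64 across the 5954 features tested at both times.

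The test of the difference between the times gave no call among the 33 genes in edgeR, where 0.496% of all 6451 features were called with a lower log2 fold change at 8 h than at 1 h and 0.946% with a higher one. At an unadjusted p under 0.05, 7 subunits had a higher value at 8 h and none a lower one, and DESeq2 called 1 higher. The share of all features was not computed for either count, so they have no background. The median difference was 0.16 for the 33 genes and -0.023 for all features. In the core it ran from 0.11 in PRE8 to 0.53 in PRE1 (adjusted p = 0.0805), in the base from -0.068 in RPN10 to 0.31 in RPT4, and in the lid from 0.025 in RPN7 to 0.50 in SEM1; RPN4 had -0.15. Under total counts, which moved the median of all features by -0.16 and left 29.9% of all calls higher in place of 65.6%, PRE8 (-0.045) and RPN7 (-0.14) were below 0.

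Footprints at 8 h differed in direction between subunits. The 14 core genes held 2394 and 2529 CPM with IAA, against 3026 and 2789 CPM with DMSO, and the base genes 1659 and 1625 CPM with IAA, against 1552 and 1515 CPM with DMSO. The lid genes held 1463 and 1469.7 CPM with IAA, against 1411 and 1492 CPM with DMSO. The core groups were apart with IAA lower, the base groups were apart with IAA higher, and the lid groups overlapped. Among the 33 genes 5 were called lower and 2 higher, against 13.0% and 11.1% of all 5012 features. The lower calls were thus near the share of all features and the higher calls below it. The medians were -0.26 in the core, 0.067 in the base and 0.028 in the lid, against 0.0073 for all features.

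PRE6 (YOL038W), the alpha4 subunit, had 136 and 151 CPM with IAA, against 232 and 190.0 CPM with DMSO (log2 fold change -0.53 ± 0.13, adjusted p = 0.00198). Also lower were PRE1 (log2 fold change -0.44 ± 0.14, adjusted p = 0.0157), PUP3 (log2 fold change -0.36 ± 0.13, adjusted p = 0.0424) and PRE3, which had 144 and 165 CPM with IAA, against 213 and 192 CPM with DMSO (log2 fold change -0.37 ± 0.13, adjusted p = 0.0295). Of the other catalytic genes, PUP1 had 196 and 202 CPM with IAA, against 209 and 195 CPM with DMSO (log2 fold change -0.017 ± 0.13, adjusted p = 0.945) and was the highest of the core, and PRE2 had 197 and 198 CPM with IAA, against 224 and 198 CPM with DMSO (log2 fold change -0.083 ± 0.13, adjusted p = 0.700), with overlapping groups in both.

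PRE1 had 128 and 165 CPM with IAA, against 229 and 177 CPM with DMSO, PRE7 had 161 and 164 CPM with IAA, against 189 and 199 CPM with DMSO, and PRE9 had 226 and 232 CPM with IAA, against 247 and 224 CPM with DMSO. Only PRE9 of these had overlapping groups.

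The base held genes that moved in both directions. RPN2 (YIL075C), a large scaffold subunit, had 294 and 248 CPM with IAA, against 183 and 194 CPM with DMSO (log2 fold change 0.52 ± 0.13, adjusted p = 0.00165), and RPN1 (YHR027C), the other scaffold, had 273 and 238 CPM with IAA, against 211 and 182 CPM with DMSO (log2 fold change 0.39 ± 0.13, adjusted p = 0.0179). Both rose without overlap. RPN10 had 118 and 134 CPM with IAA, against 174 and 175 CPM with DMSO (log2 fold change -0.47 ± 0.13, adjusted p = 0.00681) and fell, as it had at 1 h. The 6 ATPase genes lay between -0.069 in RPT6 and 0.16 in RPT2, and none passed. RPT2 had 142 and 156 CPM with IAA, against 133 and 133 CPM with DMSO and RPN13 had 58.4 and 72.4 CPM with IAA, against 80.8 and 89.9 CPM with DMSO, without overlap in either.

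No lid gene passed at 8 h in edgeR or DESeq2, and 1 had an unadjusted p under 0.05, for which the share of all features was not computed. SEM1 was the lowest, with 81.8 and 99.996 CPM with IAA, against 125 and 111 CPM with DMSO (log2 fold change -0.36 ± 0.15, adjusted p = 0.0711), and RPN3 (YER021W) the highest, with 209 and 210.4 CPM with IAA, against 154 and 195 CPM with DMSO (log2 fold change 0.24 ± 0.13, adjusted p = 0.189); neither had overlapping groups. RPN11 had 109 and 118 CPM with IAA, against 118 and 119.9 CPM with DMSO (log2 fold change -0.066 ± 0.14, adjusted p = 0.788), and RPN4 had 73.7 and 62.7 CPM with IAA, against 68.1 and 80.6 CPM with DMSO (log2 fold change -0.16 ± 0.16, adjusted p = 0.545), with overlap in both. RPN8, with 136 and 155 CPM with IAA, against 145 and 183 CPM with DMSO, overlapped as well.

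The footprint calls at 8 h depended on single libraries. Without IAA replicate 1 none of the 33 genes was called, and without DMSO replicate 1, the shallowest library, or without IAA replicate 2, 3 were lower and 2 higher. PRE3 and PUP3 were lost in both cases (-0.31 and -0.23 without DMSO replicate 1, -0.48 and -0.34 without IAA replicate 2), and PRE1 without DMSO replicate 1 (-0.27). Leaving out DMSO replicate 2 gave 7 lower and 2 higher, among them SEM1 (-0.48) but not RPN1 (0.26). Total-count scaling raised the median of all features by 0.27 and the share of higher genes among all calls to 87.1%, from 45.9%, and turned the split of the subunits to none lower and 9 higher, with PUP1 at 0.25, PRE2 at 0.19, RPN11 at 0.20 and RPN4 at 0.11. The rises of RPN1 and RPN2 were called under all 7 alternatives other than the fold threshold; DESeq2 called 3 lower.

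The change at 8 h differed with coding length. Across the 33 genes the footprint log2 fold change was related to the log2 of the counted coding length with Pearson r = 0.85 and Spearman rho = 0.88, and r stayed between 0.77 and 0.86 with each library left out. All 5009 features with a counted length had r = 0.39 and rho = 0.46. At 1 h the 33 genes had r = -0.23 and rho = -0.12, and with each library left out r was -0.36 to -0.060 and rho -0.24 to 0.055. RNA at 8 h had r = -0.10. RPN1 and RPN2 have the longest coding sequences of the 33, of 2982 and 2838 bases, and SEM1 and RPN13 the shortest, of 270 and 471 bases. Core genes are of 597 to 867 bases, shorter than all the ATPase genes of 1218 to 1404 bases. The base and the lid also hold genes of the core's length or less, and these had log2 fold changes of -0.47 in RPN10, which was called, and of -0.40 in RPN13, -0.36 in SEM1 and -0.22 in RPN12, which were not. The genes share the same 4 libraries, and the values are a description.

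**Figure D4:**
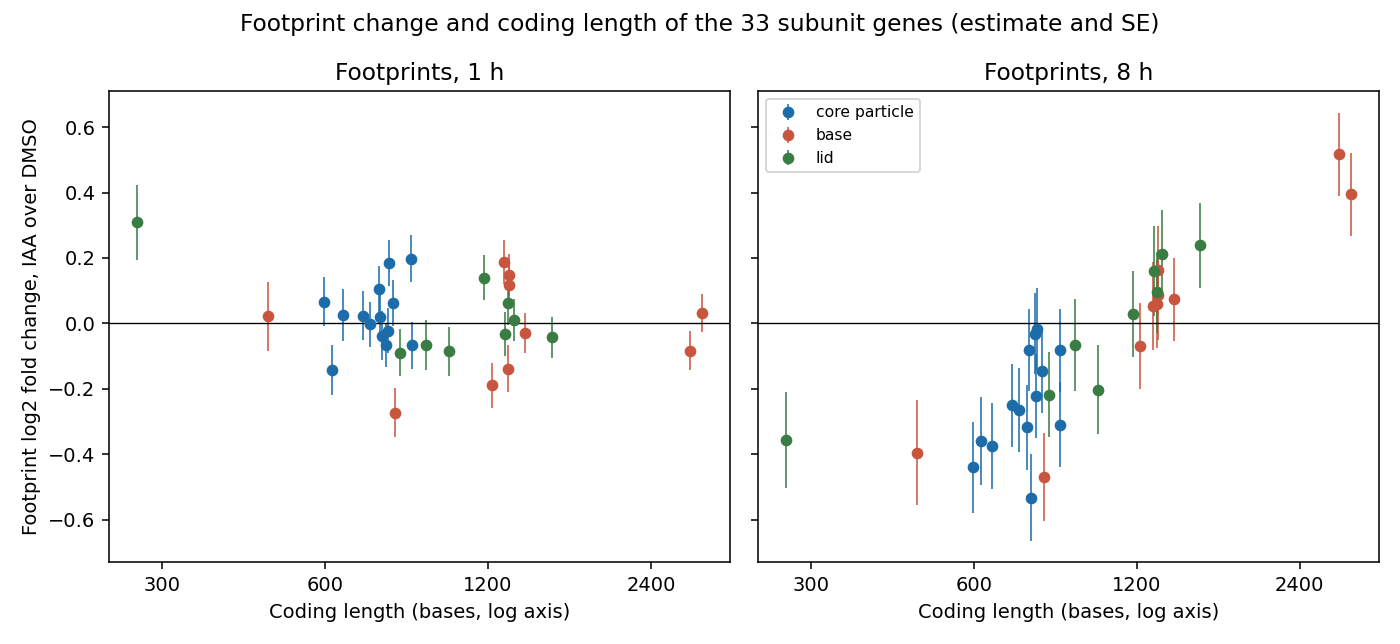
Footprint log2 fold change, IAA over DMSO, with its standard error, against coding length on a log axis, of the 33 subunit genes at 1 h (left) and 8 h (right). At 8 h the highest points are the longest genes, RPN2 (2838 bases, 0.52) and RPN1 (2982 bases, 0.39). The lowest is PRE6 (765 bases, -0.53), and SEM1, the shortest (270 bases), lies at -0.36. At 1 h SEM1 is the highest, at 0.31.

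The ratio of footprints to RNA at 8 h was called higher for 3 genes of the base: RPT2 (0.92 ± 0.17, adjusted p = 0.00866), RPN1 (0.82 ± 0.19, adjusted p = 0.0210) and RPN2 (0.77 ± 0.19, adjusted p = 0.0270). All 3 were also past 0.58; 3.45% of all 5442 features were called higher, with and without that threshold, and 2.02% lower. The median of the 33 genes was 0.17, against -0.024 for all features. In the core the ratio ran from -0.22 in PRE1 to 0.25 in PRE7 and in the lid from -0.27 in RPN8 to 0.52 in RPN3, and RPN13 was the lowest of the base (-0.24). No core or lid gene passed in edgeR or DESeq2. At an unadjusted p under 0.05, 4 lid genes were higher, a count for which the share of all features was not computed. RPN4 had -0.41 ± 0.19 (adjusted p = 0.203).

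None of the 3 calls held with every library left out. Without IAA footprint replicate 1 no subunit was called, without IAA footprint replicate 2 or IAA RNA replicate 2 RPT2 alone was, and without DMSO RNA replicate 1 there were 5, RPN3 among them (0.65). RPN1 was also lost without DMSO footprint replicate 2 (0.73), and RPN2 without either DMSO footprint replicate (0.72 and 0.84) or DMSO RNA replicate 2 (0.71). Total-count scaling gave 4 higher subunits, with 78.1% of all calls higher in place of 63.1%.

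The difference of the footprint response between 8 h and 1 h was called for 2 subunits. RPN2 had a higher log2 fold change at 8 h (difference 0.61 ± 0.14, adjusted p = 0.00448), and SEM1 a lower one (difference -0.65 ± 0.18, adjusted p = 0.0218). Of all 5034 features 4.89% were called lower and 8.05% higher, or 3.18% and 5.88% with the threshold of 0.58, which both genes passed. The call of RPN2 was kept with each library left out and under every alternative, and that of SEM1 was lost in DESeq2, and without IAA replicate 1 (-0.62), IAA replicate 2 (-0.68) or DMSO replicate 2 (-0.60) of 1 h or IAA replicate 1 of 8 h (-0.52). The core ran from -0.48 in PRE1 to 0.05 in PRE9, RPN13 was the lowest of the base (-0.41), RPN3 the highest of the lid (0.28), and RPN4 had -0.20. Leaving out DMSO replicate 2 of 8 h gave 4 lower genes, PRE1 among them (-0.70), and 3 higher, RPN3 among them (0.49), and leaving out IAA replicate 2 of 8 h gave 5 lower, with PRE1 (-0.65) and RPN13 (-0.56), and 2 higher. Without DMSO replicate 1 of 8 h there were 2 in each direction. With total counts 2 were higher, and 73.9% of all calls were higher in place of 62.2%.

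Levels between subunits were compared per length, as CPM per kilobase of coding sequence, since subunits of a particle are needed in equal number. Footprints of the core genes at 1 h lay close together, with a coefficient of variation over the 14 genes of 8.54% ± 1.28 with IAA and 8.11% ± 1.07 with DMSO (SD, n = 2 each). RNA of the same genes was more spread, at 22.0% ± 0.065 with IAA and 14.2% ± 0.20 with DMSO. For RNA of the lid the values were 29.2% ± 2.70 with IAA and 40.3% ± 5.15 with DMSO. SEM1 was the highest lid gene per length in all 4 libraries, at 247 and 254 CPM per kilobase with IAA, against 448 and 488 CPM per kilobase with DMSO. The next, RPN8, had 233 and 228 CPM per kilobase with IAA, against 277 and 266 CPM per kilobase with DMSO. The lid values thus lean on SEM1. The spread of the other lid genes was not computed, so a more even lid with IAA is not shown.

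At 8 h the footprints of the base varied by 19.6% ± 5.74 with IAA and 39.9% ± 1.81 with DMSO, and those of the lid by 42.0% ± 5.75 with IAA and 59.8% ± 8.16 with DMSO, while those of the core varied by 13.7% ± 0.45 with IAA and 12.0% ± 1.33 with DMSO. In the base and in the lid the spread of both IAA libraries was below that of both DMSO libraries. In the lid it was 37.9% and 46.0% with IAA, against 65.5% and 54.0% with DMSO. RPN2 footprints amounted to 104 and 87.3 CPM per kilobase with IAA, against 64.5 and 68.3 CPM per kilobase with DMSO, and RPN13 footprints to 124 and 154 CPM per kilobase with IAA, against 171 and 191 CPM per kilobase with DMSO, so these genes were farther apart with DMSO. RPN2 is among the longest subunit genes and RPN13 among the shortest, and the footprint change at 8 h differed with coding length. The part of length in the narrower spread was not tested. At 1 h the footprints of the base had varied by 15.1% with IAA and 14.2% with DMSO. Those of the lid had varied by 13.9% with IAA and 11.8% with DMSO. The DMSO libraries themselves were thus more spread at 8 h than at 1 h in base and lid. Library preparation differed between the times, and its part was not tested. With 2 libraries a group, the smallest p of an exact permutation test would be above 0.05, and none was run.

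**Figure D5:**
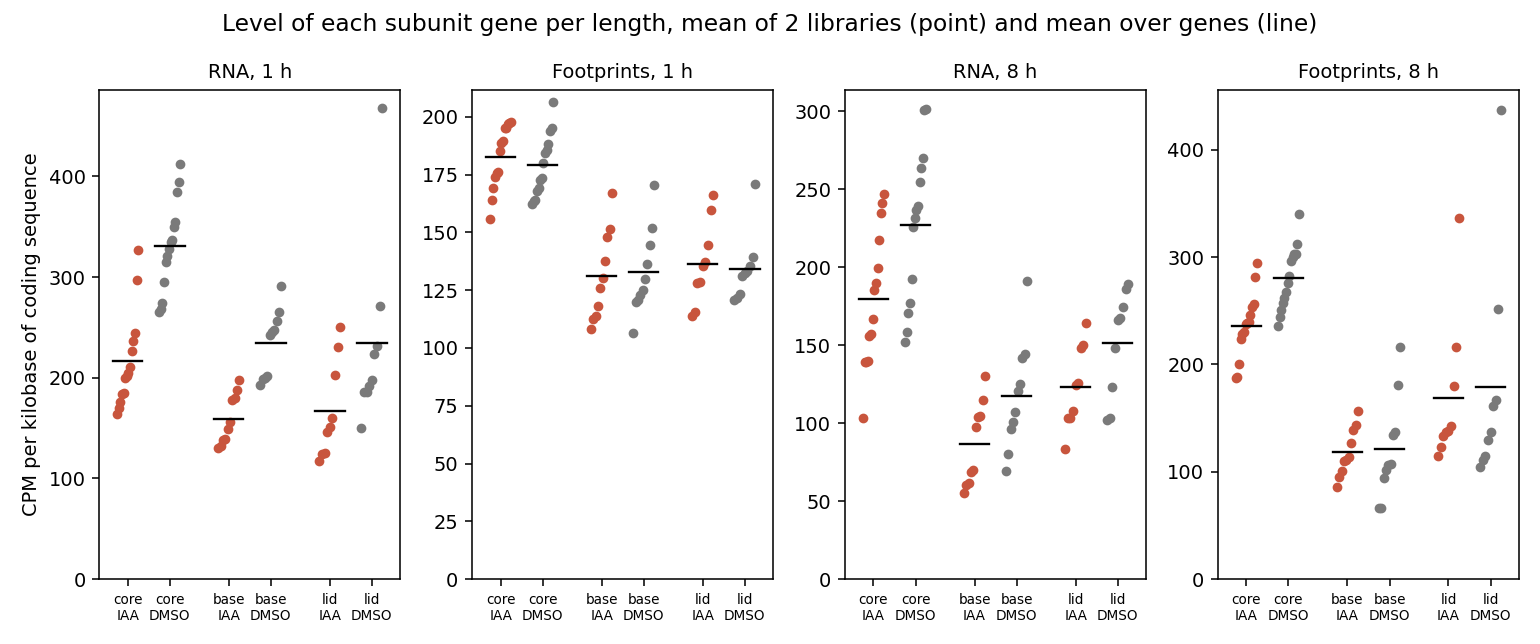
CPM per kilobase of coding sequence of each subunit gene (points, mean of 2 libraries) in core, base and lid for IAA and DMSO, in RNA and footprints at 1 h and 8 h, with the mean over genes as a line. Core genes sit in a narrow band in the footprints of 1 h (coefficient of variation 8.54% with IAA and 8.11% with DMSO). In the footprints of 8 h the base spans less with IAA (19.6%) than with DMSO (39.9%), as does the lid (42.0% and 59.8%). In those of 1 h the base varied by 15.1% with IAA and 14.2% with DMSO.

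Genes with and without the control element were set side by side. At 1 h the 27 subunit genes with GGTGGCAAA had a median RNA log2 fold change of -0.58, and the 6 without it one of -0.51, with ranges of -1.0 to -0.20 and -0.90 to -0.23 that overlapped. At 8 h the medians were -0.33 with the element and -0.25 without.

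Genes that work around the proteasome were read from lists chosen by function. Of 10 assembly chaperone genes, 3 fell and 3 rose in RNA at 1 h: UMP1 (-0.74), a chaperone of core maturation, and NAS6 (-0.43) were among those lower, and HSM3 (0.75), a base chaperone, and ADD66 (0.71), a core chaperone, among those higher. Of 4 accessory genes ECM29 (-0.85), an adaptor that binds the assembled proteasome, and BLM10 (-0.30) were lower. Of 10 genes of ubiquitin and its enzymes 4 were lower, with UBC4 (-0.71) and RAD6 (-0.55), both conjugating enzymes, in front. Of 7 genes that deliver substrates 6 were lower, led by the shuttle genes DSK2 (-1.07) and DDI1 (-0.73). SKP1 (-0.46) was the only gene called lower of 4 SCF ligase genes, whose median was -0.059. UBR2 (-0.52), the ligase of Rpn4, was the only one of 6 genes that control RPN4 or its promoter, whose median was -0.070. The background is the 20.9% lower and 21.9% higher of all features given above.

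In footprints at 1 h TMA17 (0.67) and RPN14 (0.62) of the assembly list, HUL5 (0.44) and ECM29 (0.21) of the accessory list, UBI4 (0.28) and UFD4 (0.21) of the ubiquitin list and DDI1 (0.30) of the delivery list were higher, and these were all that passed, beside 11.1% of all features higher and 14.9% lower. DESeq2 called none of these 7 genes. The ratio at 1 h rose for 3 assembly genes, UMP1 (0.81) and TMA17 (0.74) among them, and fell for 3, ADD66 (-0.92) and HSM3 (-0.71) among them. It also rose for ECM29 (1.00), for UBC4 (0.81) and RAD6 (0.55), and for 3 delivery genes, with DSK2 (0.88) and DDI1 (0.96) in front, where 9.88% of all features were higher and 10.4% lower. DSK2, DDI1, ECM29 and UMP1 thus had lower RNA and a higher ratio, as most subunits did. A fall of RNA without an equal fall of footprints raises the ratio by definition. How often this occurred among all features with lower RNA was not tested.

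At 8 h RNA was lower for UMP1 (-0.49) and TMA17 (-0.53), ECM29 (-0.64), RAD6 (-0.44) and 4 delivery genes, with DSK2 (-0.82) and DDI1 (-0.67) in front, and higher for UBC5 (0.57), beside 8.61% of all features lower and 9.03% higher; DESeq2 did not call TMA17 or UBC5. Footprints were lower for 3 assembly genes, with NAS6 (-0.69) and POC4 (-0.93) in front, and for the 3 ubiquitin fusion genes, with RPS31 (-0.60) and RPL40A (-0.46) in front. They were higher for BLM10 (0.65), UFD4 (0.74), UBA1 (0.41), the activating enzyme, and the cullin gene CDC53 (0.73), which DESeq2 did not call. Of all features 13.0% were lower and 11.1% higher there. The ratio fell for ADD66 (-0.78) and rose for BLM10 (1.06), ECM29 (0.97), UBA1 (0.86), UBR1 (0.73) and CDC48 (0.86), which pulls substrates apart, beside 2.02% of all features lower and 3.45% higher. Between the times the footprint response was lower at 8 h for TMA17 (-1.43), IRC25 (-1.22) and 3 ubiquitin fusion genes, with RPS31 (-0.48) and RPL40A (-0.35) in front, and higher for BLM10 (0.81), for 3 ubiquitin genes, with UBA1 (0.55) and UFD4 (0.52) in front, and CDC48 (0.41), beside 4.89% of all features lower and 8.05% higher. DESeq2 gave no adjusted p for TMA17 and IRC25 in that comparison and did not call RPL40A. RPL40A, RPL40B and RPS31 each encode ubiquitin, as do the repeats of UBI4, and UBC4 and UBC5 are close relatives. Their sequences were not compared here, so reads may have been assigned to the wrong gene and their counts are uncertain.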

How the data were processed

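RNA and ribosome footprints were sequenced in 16 libraries, 2 in each of 8 groups, which were taken from the labels. The authors deposited whole-number counts for each gene, without normalisation. Trimming with cutadapt, alignment with STAR and the builds R64 and sacCer3 are named in the submitters' processing notes. Which counter was run, and how it treated strand, was not given in the sources used here. The length given with the footprints is the coding length less 20 codons. Entries that name no gene (21.7 to 31.2% of RNA reads) stayed out of library sizes and tests. No member overlaps another gene of the RefSeq annotation. Of the 7126 RNA features 6048 had a RefSeq locus tag, and overlap with the others was not checked.

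Tests used R 4.3.3 with edgeR 4.0.16 (filterByExpr by group, TMM, quasi-likelihood F test, Benjamini-Hochberg adjustment over all features), limma 3.58.1 under it, and DESeq2 1.42.0 as an alternative; elements and figures used Python 3.11.15 and matplotlib 3.10.9. IAA and DMSO were compared in 4 libraries per assay and time. The ratio and the difference between times were interactions in 8 libraries. Standard errors were the log2 fold change over the square root of F. No replicate pair agreed within sampling noise (chi-square over its degrees of freedom was 1.43 to 56.5). Footprints were shallower than RNA, but depth alone did not set the precision. At 1 h the standard error of RPN1 was 0.098 in RNA and 0.057 in footprints, whereas that of SEM1 was 0.073 and 0.11. Windows around start codons were cut from the RefSeq genome of R64.

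The members and lists were chosen with earlier results of these data known. Values per library are given for RPN4, PRE3, PUP1, PRE2, RPN11 and the lowest and highest member of each subcomplex in a comparison, and of the other lists the called genes with the smallest adjusted p are named, at most 2 per direction. Other members named, such as those whose calls were lost, were added after their values were seen. Alternatives were DESeq2, its size factors in edgeR, total counts, no filter on low counts, features in all 16 libraries' tables, replicate blocks, wider fits, each library left out, and for the element GGTGGC and, chosen after seeing the data, a window of 500 bases.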

Additional observations from a re-analysis of the deposited data

Results flagged for a closer look

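The footprint responses of 2 subunits differed between the times by the interaction test of edgeR with Benjamini-Hochberg adjustment. The log2 fold change of RPN2 was higher at 8 h than at 1 h by 0.61 ± 0.14 (adjusted p = 0.00448). That of SEM1 differed by -0.65 ± 0.18 (adjusted p = 0.0218), the value at 8 h being the lower. RPN2 is among the longest subunit genes and SEM1 is the shortest. Library preparation also differed between the times, and its part was not tested.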

How the results depend on the processing

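With 2 libraries a group, leaving out 1 leaves a lone sample that is assumed to vary like the others. Scaling to total counts turned the sign of RPN5 in RNA at 1 h (0.022), of RPN11 (0.12), PUP3 (0.041) and RPN12 (0.093) in footprints at 1 h, of PUP1 (0.25), PRE2 (0.19), RPN11 (0.20) and RPN4 (0.11) in footprints at 8 h, and of PRE8 (-0.045) and RPN7 (-0.14) in the time difference of RNA; none of these was called. It gave 0 lower and 16 higher subunits in footprints at 1 h, 0 and 9 at 8 h, and 2 higher in their time difference. DESeq2 gave 0 and 0 in footprints at 1 h, 3 lower at 8 h, 1 higher in the time difference of RNA, and 0 lower and 2 higher in that of footprints; its size factors in edgeR gave 2 higher there, and no filter on low counts 4 lower and 2 higher. All 8 libraries of an assay in the fit gave 0 and 0 (footprints 1 h), 20 lower (RNA 8 h) and 10 lower (footprints 8 h). A threshold of 0.58 left 14 lower in RNA at 1 h, 1 lower in RNA at 8 h, 0 and 0 in footprints at either time, and 12 higher ratios at 1 h.

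Without single libraries the counts were 0 to 2 lower and 0 to 3 higher for footprints at 1 h, 1 to 11 lower for RNA at 8 h, 0 to 7 lower and 0 to 2 higher for footprints at 8 h, 0 to 5 higher for the ratio at 8 h, and 0 to 5 lower and 1 to 3 higher for the time difference of footprints. Signs turned, in genes not called, for PRE3 (-0.067 to 0.14), RPN4 (-0.071 to 0.14) and RPN12 (-0.22 to 0.0095) in footprints at 1 h, RPN8 in RNA at 8 h (-0.029 to 0.077), PUP1 in footprints at 8 h (-0.094 to 0.024), RPN8 in the ratio at 1 h (-0.028 to 0.19), PRE3 in the ratio at 8 h (-0.25 to 0.029), RPN4 (-0.34 to 0.014) and RPN7 (-0.12 to 0.16) in the time difference of RNA, and RPN11 (-0.032 to 0.059) and PRE9 (-0.040 to 0.11) in that of footprints. Coding length less 20 codons gave footprint variation of 13.9% in the base with IAA at 1 h, 20.0% and 13.9% in the lid with IAA and DMSO at 1 h, 42.8% in the base with DMSO at 8 h, and 52.7% and 72.0% in the lid with IAA and DMSO at 8 h. The causes were not tested.

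Replicate numbers were not shown to pair the libraries (deviations of same-numbered IAA and DMSO libraries correlated at 0.49 and 0.46 in RNA at 1 h and 8 h and at 0.031 and 0.043 in footprints). A replicate block gave 33 lower in RNA at 1 h, where RPN4 was called higher (0.33), 10 lower in RNA at 8 h, 2 lower and 4 higher in footprints at 1 h, 7 lower and 2 higher at 8 h, and 21 and 3 higher ratios; with the culture as the block the ratio at 8 h had 7 higher.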
